A study of Fukomys damarensis and Heterocephalus glaber and Mus musculus with 160 samples.

Results

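The form of H3K4me1 peaks in the heart was described in 16 peak lists, which are all the heart H3K4me1 lists of a series of 160 samples, 116 of them with a peak list. The rule that picks the members reads their titles and no peak value, although it was set with earlier results of these data known. They came from the naked mole-rat Heterocephalus glaber (NMR, 3 libraries), the Damaraland mole-rat Fukomys damarensis (DMR, 5 libraries), the guinea pig Cavia porcellus (3 libraries) and the mouse Mus musculus (5 libraries). In ChIP-seq an antibody recovers crosslinked chromatin, the recovered DNA is read, and a peak is called where it is denser than in chromatin that met no antibody (the input). All animals were labelled as wild-type adult males. The mice were C57BL/6J aged 2 months, the guinea pigs were 2.3 months, the naked mole-rats were 13, 14 and 17 months, and the Damaraland mole-rats were 36 or 48 months by estimate. Species therefore cannot be told apart from age, from genome assembly or, for the mouse, from an inbred strain. Each library came from 1 animal, except 1 mouse library whose label names 3 animals, called the mouse pool here and counted as 1 replicate. Whole heart was used, so the lists mix heart muscle, vessel, connective and blood cells, and their shares were not measured.

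H3K4me1 is a single methyl group on lysine 4 of histone H3. It is laid down mainly by the KMT2C and KMT2D methyltransferases and covers enhancers, both active ones, which also carry H3K27 acetylation, and primed ones, which do not. Around an active promoter the nucleosomes next to the start site carry the trimethylated form, H3K4me3, and H3K4me1 lies on the flanks. The mark therefore tends to form broad domains with several local maxima, and where a caller ends a peak and sets its summit is part of what a list records. In heart, H3K4me1 marks the distal elements bound by cardiac factors such as GATA4, TBX5, MEF2 and NKX2-5. No sequence or gene is given for the regions below, because no genome or annotation of these builds was used here.

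The lists held between 20521 peaks (the mouse pool) and 158541 peaks (DMR2), 1444061 in all. Read depth is unknown: the lists hold no number of reads. The share of peaks with a −log10 q of at least 4 ran from 35.6% (NMR32) to 77.0% (mouse 17_3498). The lists also differed in ways that follow the library name and, among the vl names, also the species. No 2 neighbouring peaks of a list lay closer than 51 bases in the 7 libraries whose names start with do, and closer than 75 to 77 bases in the mole-rat and guinea pig libraries whose names start with vl. In the 3 mouse vl libraries that limit was 151 bases. The smallest width was 254 to 299 bases, and in 12 of 16 lists the tenth percentile of the widths was equal to the smallest width. The lists of mouse 33017, 17_3500 and 17_3501 were called against the input of another animal, and those of mouse 33017 and DMR1 carry a tag, 40M, that the labels do not explain. The part of these features in the results was tested only where a setting below names them.

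Peaks were widest in the mouse and narrowest in the mole-rats by the mean of the libraries' medians, but the species overlapped. Median width was 449, 435 and 384 bases in NMR30, NMR31 and NMR32. It was 457, 371, 411, 433 and 409 bases in DMR1, DMR11, DMR2, DMR3 and DMR4. The 2 mole-rats covered the same range. In GuineaPig7, GuineaPig8 and GuineaPig9 it was 488, 434 and 493 bases. In the mouse it was 530 (17_3498), 542 (17_3500), 516 (17_3501) and 569 bases (33017), against 381 bases in the mouse pool. So 4 mouse libraries lay above all 11 others, while the mouse pool lay among the lowest of all 16 lists. The means were 423 ± 34.2 bases in NMR (SD, n = 3), 416 ± 31.9 in DMR (SD, n = 5), 472 ± 32.7 for the guinea pig (SD, n = 3) and 508 ± 73.4 in the mouse (SD, n = 5).

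The 4 species together accounted for 43.0% of the variance of log2 median width between libraries (exact permutation test over all 40360320 assignments of libraries to species, one-sided, p = 0.0771; adjusted over the 4 form measures by the Benjamini-Hochberg method, p = 0.0771). This did not pass the threshold of 0.05. None of the 6 pairs of species passed either, with the lowest adjusted p at 0.257 over 24 pairs by two-sided exact permutation tests. The mouse pool decided this outcome: without it the species share was 77.0% and the adjusted permutation p was 0.00356. Even then the most different pair, Damaraland mole-rat and mouse, had an adjusted exact permutation p of 0.0952, with a log2 difference of -0.38. The widths of this pair did not overlap then, so its unadjusted p was already the smallest that its numbers of libraries can give.

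The upper tail of the widths was also larger in all guinea pig lists and most mouse lists than in the mole-rats. Peaks of 1 kb or wider made up 3.59% to 11.4% of a naked mole-rat list, 3.33% to 11.2% of a Damaraland mole-rat list, 12.8% to 16.1% of a guinea pig list and 2.78% to 24.3% of a mouse list. All 3 guinea pig lists thus had a larger share of such peaks than any mole-rat list. The widest peak of a list averaged 22910 ± 1463 bases in the guinea pig (SD, n = 3) and 17655 ± 13121 bases in the mouse (SD, n = 5), so the mouse did not lead there. The mouse spanned the whole range, from 2.78% in the mouse pool to 24.3% in mouse 33017. The widest single peak was 38671 bases, in mouse 33017, and the widest in the guinea pig was 24463 bases, in GuineaPig9.

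Fold over background, the peak caller's own ratio for each peak, was also highest in the mouse by the mean and overlapped between species. Median fold was 4.20, 4.73 and 4.73 in NMR30, NMR31 and NMR32. It was 4.38, 5.13, 4.46, 4.47 and 4.12 in DMR1, DMR11, DMR2, DMR3 and DMR4. It was 4.77, 4.67 and 4.53 in GuineaPig7, GuineaPig8 and GuineaPig9. In mouse 17_3498, 17_3500 and 17_3501 it was 5.74, 5.34 and 5.29, and in mouse 33017 and the mouse pool 4.68 and 4.69. The 3 mouse vl libraries were the highest of all 16, and the 2 mouse do libraries lay within the guinea pig range. Species accounted for 42.7% of the variance of log2 median fold (exact permutation p = 0.0693, adjusted p = 0.0771). Within library series, with libraries exchanged only among do or among vl names, the share was 57.1% (adjusted exact permutation p = 0.0642). Without the mouse pool it was 51.2% (adjusted permutation p = 0.0418).

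Spacing was compared among the 20521 peaks of highest −log10 p in each list, so that lists of different length could be set side by side. Over all peaks the species share of the gap was 20.3% (adjusted exact permutation p = 0.407). The median gap to the next peak on the same scaffold was 8679, 8024 and 10072 bases in NMR30, NMR31 and NMR32. It ran from 8088 (DMR11) to 10048 bases (DMR2) in the Damaraland mole-rat. The 2 mole-rats did not differ beyond their spread. The gap was 9254, 9770 and 12969 bases in GuineaPig7, GuineaPig8 and GuineaPig9. In the mouse it was 14910 (17_3498), 11548 (17_3500), 11569 (17_3501), 17591 (33017) and 8939 bases (pool). The other 4 mouse lists were thus spaced more widely than all 8 mole-rat lists, while the mouse pool lay inside the mole-rat range. Species accounted for 48.3% of the variance of the log2 gap (exact permutation p = 0.0382, adjusted p = 0.0771). Without the mouse pool the share was 66.5% (adjusted permutation p = 0.0149), and on scaffolds reaching 1 Mb it was 63.0% (adjusted exact permutation p = 0.0330). A scaffold was counted as reaching 1 Mb by the highest peak end on it over all lists of the species, since no scaffold lengths were used. By this stand-in 73.3% to 73.8% of naked mole-rat peaks lay on scaffolds reaching 1 Mb, against at least 93.1% in the other lists.

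**Figure D1:**
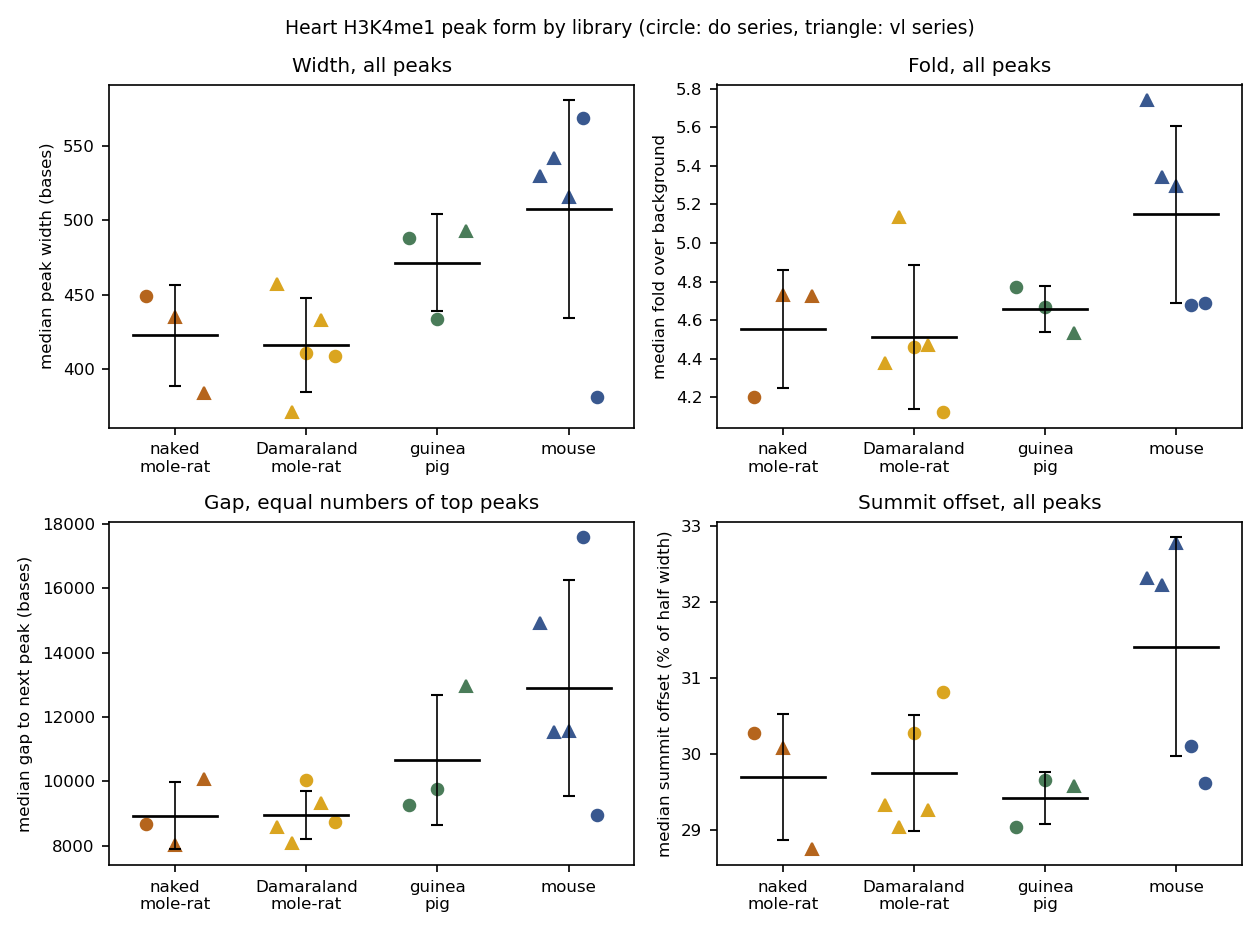
Median peak width (bases), median fold, median gap to the next peak among the 20521 top peaks (bases) and median summit offset (percent of the distance from centre to edge) of the 16 heart H3K4me1 lists. Each point is 1 library (circle, do name; triangle, vl name), the line is the species mean and the bar 1 SD; the y axes do not start at 0. In each panel the mole-rats overlap, and the mouse pool, the last mouse circle, lies at the low end of the mouse lists for width, gap and offset.

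Summits lay off the centre of the peak by a similar amount in every list. The offset is the distance of the summit from the centre, as a percent of the distance from centre to edge, so that 0% is the centre and 100% the edge. Over all peaks the median offset was 28.7% to 30.3% in NMR, 29.0% to 30.8% in DMR, 29.0% to 29.7% for the guinea pig and 29.6% to 32.8% in the mouse. The 3 mouse vl lists (32.3%, 32.2% and 32.8%) were the highest, and mouse 33017 (30.1%) and the mouse pool (29.6%) lay among the other species. Species accounted for 47.1% of the variance (exact permutation p = 0.0452, adjusted p = 0.0771), which did not pass. Without the mouse pool the share was 64.0% (adjusted permutation p = 0.0149), and at a −log10 q of at least 4 it was 55.8% (adjusted exact permutation p = 0.0318). Without the 3 mouse lists called against another animal's input, the species shares were 25.3% for width, 35.1% for fold, 35.5% for gap and 29.4% for offset, each with an adjusted permutation p of 0.425. That setting left only 17_3498 and the mouse pool for the mouse, so it cannot tell the input apart from the weight of the pool.

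With equal numbers of top peaks the outcome of the width and fold tests did not change, and that of the offset did. The 20521 top peaks had a median width of 863, 602 and 450 bases in NMR30, NMR31 and NMR32. They had 789, 414, 954, 715 and 837 bases in DMR1, DMR11, DMR2, DMR3 and DMR4. They had 997, 941 and 1116 bases in the guinea pigs. The mouse lists had 1045 (17_3498), 902 (17_3500), 844 (17_3501), 1503 (33017) and 381 bases (pool), where the pool's value covers its whole list. Each species except the guinea pig thus spanned a wide range, and the mouse held both the lowest and the highest value. Species accounted for 21.5% of the variance of log2 width (adjusted exact permutation p = 0.391) and for 22.8% of that of log2 fold (adjusted exact permutation p = 0.391).

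At equal numbers a library's median width rose with the length of the list it was taken from. Over the 16 libraries Pearson's r of log2 width with log2 list size was 0.89 (permutation p = 2.0e-05, adjusted 1.4e-04) and Spearman's rho was 0.79 (permutation p = 4.3e-04, adjusted 0.00301). Without the 2 lists farthest from the median size, the mouse pool and DMR11, r was 0.78. For log2 fold at equal numbers r was 0.77 (adjusted permutation p = 0.00133), rho was 0.71 (adjusted permutation p = 0.00875), and r was 0.53 without those 2 lists. These were 2 of 7 correlations with list size. The other 5, of width, fold and offset over all peaks and of gap and offset at equal numbers, did not pass after adjustment. No species had the 6 libraries needed for a correlation of its own, so relations within a species were not tested.

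Within every list, width and fold fell with rank. Ranked by −log10 p, the first 1000 peaks had a median width of 618 bases in the mouse pool and 2832 bases in mouse 33017, the lowest and the highest of the 16 lists. The peaks ranked 10001 to 20000 had 342 and 1294 bases in the same 2 lists. Median width fell at each of the 3 steps between rank classes in 16 of 16 lists, and so did median fold. Rank and fold both come from the caller's values for the same peak, so the fall of fold is not independent of the ranking. The 3 guinea pigs were the most alike, with 2592, 2464 and 2598 bases in the first 1000 peaks of GuineaPig7, GuineaPig8 and GuineaPig9. NMR30, NMR31 and NMR32 had 1838, 1132 and 728 bases there. Equal ranks did not mean equal evidence, since the −log10 p of the peak ranked 20000 ran from 5.27 in the mouse pool to 15.1 in mouse 33017.

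**Figure D2:**
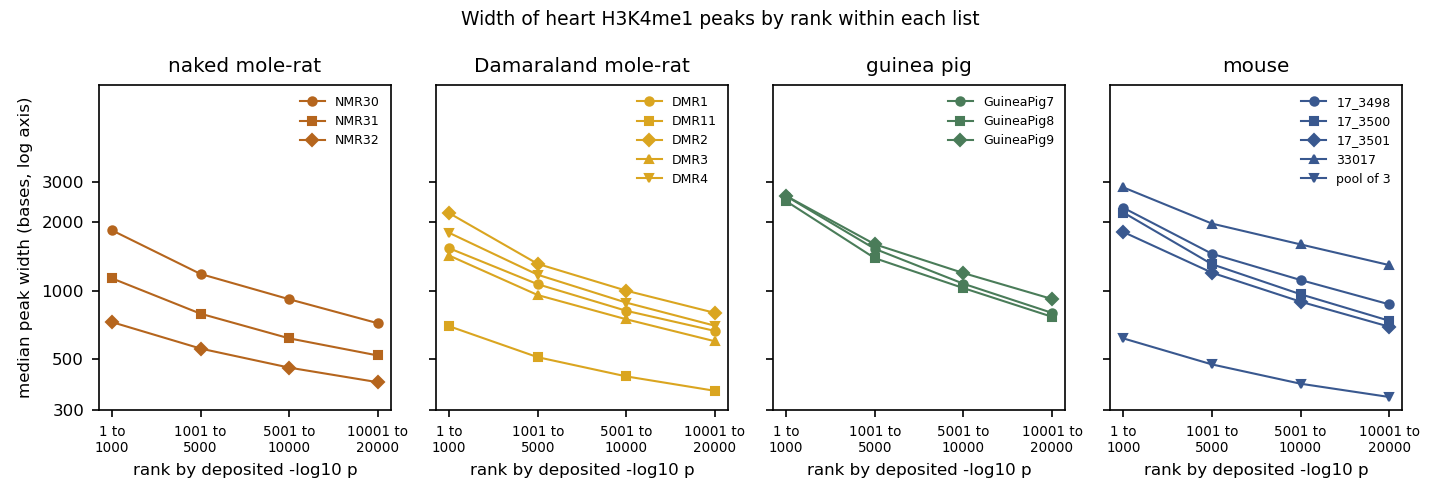
Median width (bases, log axis) of heart H3K4me1 peaks in 4 classes of rank by the deposited −log10 p, 1 line per library. All 16 lines fall from left to right; the 3 guinea pig lines lie close together, while the mouse pool and DMR11 lie far below the other libraries of their species.

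The offset of the top peaks separated the species at this number of peaks, while the outcome differed between other selections. At 20521 peaks the median offset was 27.1%, 25.8% and 25% in NMR30, NMR31 and NMR32. It was 26.9%, 26.1%, 27.1%, 26.1% and 26.4% in DMR1, DMR11, DMR2, DMR3 and DMR4. It was 28.2%, 28.9% and 29.5% in GuineaPig7, GuineaPig8 and GuineaPig9. It was 30.5%, 30.4%, 29.6%, 29.7% and 29.6% in mouse 17_3498, 17_3500, 17_3501, 33017 and the pool. All 5 mouse lists thus lay above all 3 guinea pig lists, and these above all 8 mole-rat lists. The step from guinea pig to mouse was narrow, with 29.50% in GuineaPig9 and 29.58% in 17_3501. For the mouse pool 20521 peaks are the whole list, so its value is not one of selected top peaks as in the longer lists. Species accounted for 90.5% of the variance (exact permutation p = 1.45e-05, adjusted p = 5.79e-05), with 89.8% when libraries were exchanged within library series. The 2 mole-rats overlapped. The other 5 pairs did not overlap, but none passed over the 24 pairs (lowest adjusted exact permutation p = 0.107). Each of these 5 pairs already had the smallest unadjusted p that its numbers of libraries can give by this test. That was 0.10 for 3 against 3, 0.0179 for 3 against 5 and 0.00794 for 5 against 5. With so few libraries, not passing over 24 pairs is therefore no evidence that these pairs are alike.

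Among the top 10000 peaks the species share of the offset was 40.2% (adjusted exact permutation p = 0.181). There the mouse pool had 24.8%, while the other 4 mouse lists had 29.6% to 31.9%. Without the mouse pool it was 65.1% (adjusted permutation p = 0.0139). Among top peaks of 500 to 1000 bases, a class that every list can fill with at least 4650 peaks, the share was 4.30% (adjusted exact permutation p = 0.908), and 1.72% without the mouse pool (adjusted permutation p = 0.977). In that class the offset ran from 22.7% (DMR2) to 34.3% (DMR11) within the Damaraland mole-rat alone, and from 22.9% (mouse 33017) to 31.1% (pool) within the mouse. Within this width class no difference between species in summit position was therefore detected. These selections by width and by a smaller number were added after the data were seen.

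**Figure D3:**
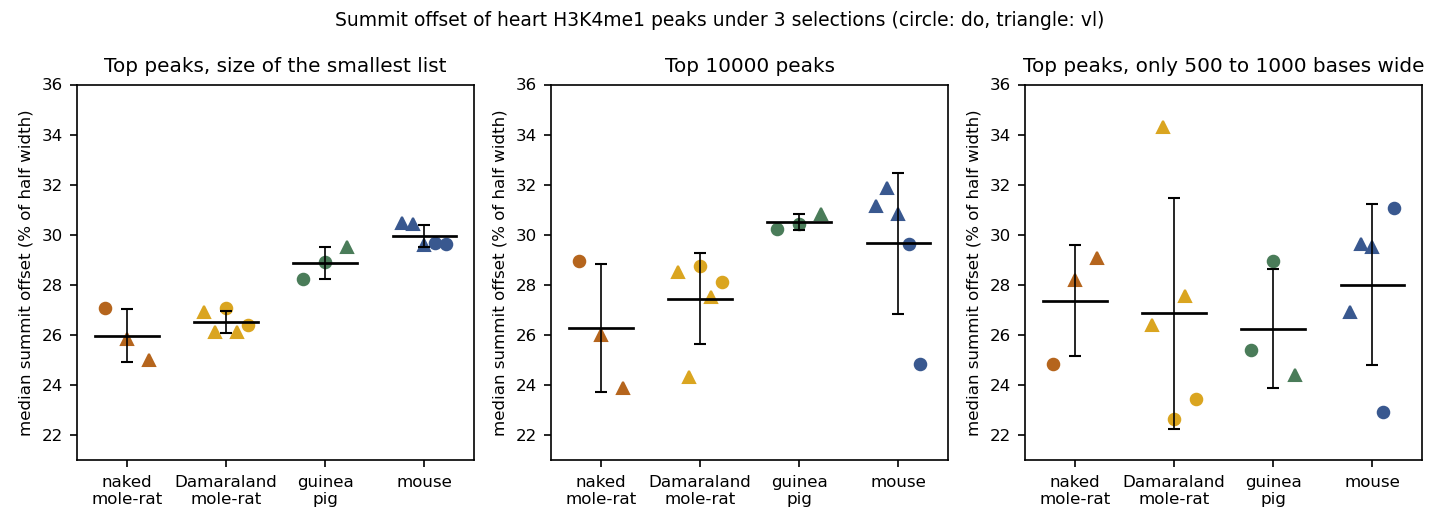
Median summit offset (percent of the distance from centre to edge) per library in the 20521 top peaks, in the top 10000 peaks and in the top peaks of 500 to 1000 bases; points are libraries (circle, do; triangle, vl), lines are species means and bars 1 SD. The order of species in the first panel (mean 26.0%, 26.5%, 28.9% and 29.9% from left to right) is not seen in the third, where the Damaraland mole-rat alone spans 22.7% to 34.3%.

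H3K4me1 peaks that coincided with H3K27ac, the acetylation of active enhancers and promoters, were wider and of higher fold than the other H3K4me1 peaks of the same list, in every species. A peak was counted as marked when its summit base lay in a region covered by at least 2 heart H3K27ac lists of its species. There were 3, 5, 3 and 6 such lists in NMR, DMR, guinea pig and mouse, so the rule was looser in DMR and mouse. The regions covered 62.7, 82.0, 66.0 and 80.2 Mb in that order. For H3K4me3, used below in the same way, there were 4, 5, 3 and 6 lists. Such peaks made up 27.7% (GuineaPig9) to 56.9% (DMR11) of a list. In the naked mole-rat their median width was 558, 496 and 424 bases in NMR30, NMR31 and NMR32, against 420, 410 and 363 bases for the other peaks. In the Damaraland mole-rat it was 395 against 347 bases in DMR11, the smallest step, and 531 against 363 bases in DMR4, the largest. In the guinea pigs it was 604, 542 and 646 against 443, 396 and 454 bases. In the mouse it ran from 396 against 364 bases in the pool to 729 against 501 bases in mouse 33017. Marked peaks were wider in 16 of 16 lists, by 0.37 ± 0.13 on the log2 scale (mean ± SD, n = 16; two-sided exact sign-flip permutation test, adjusted p = 4.07e-05), a ratio of 1.295. Their fold was higher in 16 of 16 lists by 0.13 ± 0.05 on the log2 scale (the same exact test, adjusted p = 4.07e-05), and among equal numbers of top peaks by 0.041 (adjusted exact sign-flip p = 6.1e-05), again in 16 of 16. The unadjusted p of both, 3.05e-05, is the smallest that 16 libraries can give. This test, here and for H3K4me3 below, treats the 16 libraries as independent. Those of the same species were, however, scored against the same regions.

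The size of this step was not shown to differ between species. The log2 ratio of widths was 0.30 ± 0.10 in NMR, 0.39 ± 0.15 in DMR, 0.47 ± 0.03 for the guinea pig and 0.34 ± 0.16 in the mouse, and species accounted for 18.3% of its variance (adjusted exact permutation p = 0.619). For the fold the species share was 30.4% (adjusted exact permutation p = 0.619), and among equal numbers of top peaks 58.3% (exact permutation p = 0.0142, adjusted p = 0.0569), which did not pass. Among equal numbers of top peaks the H3K27ac-marked peaks were again wider in 16 of 16 lists, by 0.32 on the log2 scale (adjusted exact sign-flip p = 6.1e-05).

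Peaks at H3K4me3 regions, which mark promoters, were wider than the rest over all peaks and narrower among the top peaks. Over all peaks, those with their summit in an H3K4me3 region of the species made up 4.68% (NMR30) to 15.7% (mouse pool) of a list. Their median width was 486 against 448 bases for the other peaks in NMR30, 441 against 434 in NMR31 and 382 against 384 in NMR32. It was 499 against 405 bases in DMR2, 520 against 485 in GuineaPig7 and 774 against 545 in mouse 33017. Over the 16 lists the marked peaks were wider in 15, by 0.14 ± 0.13 on the log2 scale (exact sign-flip test, adjusted p = 6.1e-05), and of higher fold in 16 of 16, by 0.09 ± 0.06 (adjusted exact p = 4.07e-05). Species accounted for 21.3% of the variance of the width step and for 7.61% of that of the fold step (adjusted exact permutation p = 0.619 and 0.871).

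Among equal numbers of top peaks the width step had the opposite sign. There the H3K4me3-marked peaks were narrower in 14 of 16 lists, wider in the mouse pool and equal in DMR11, with a mean log2 ratio of -0.19 (adjusted exact sign-flip p = 1.63e-04). In GuineaPig9 they were 876 bases wide against 1140, in mouse 33017 1222 against 1627, and in NMR30 736 against 873. The fold step of these peaks was 0.016 at equal numbers, with 14 of 16 lists higher (adjusted exact sign-flip p = 0.00293). The species means were -0.16 in NMR, -0.11 in DMR, -0.32 for the guinea pig and -0.20 in the mouse. At a −log10 q of at least 4 the step was 0.04 and did not pass (adjusted exact sign-flip p = 0.188). The H3K27ac step kept its sign in the same selections, so of the 4 contrasts tested only the H3K4me3 width step turned.

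**Figure D4:**
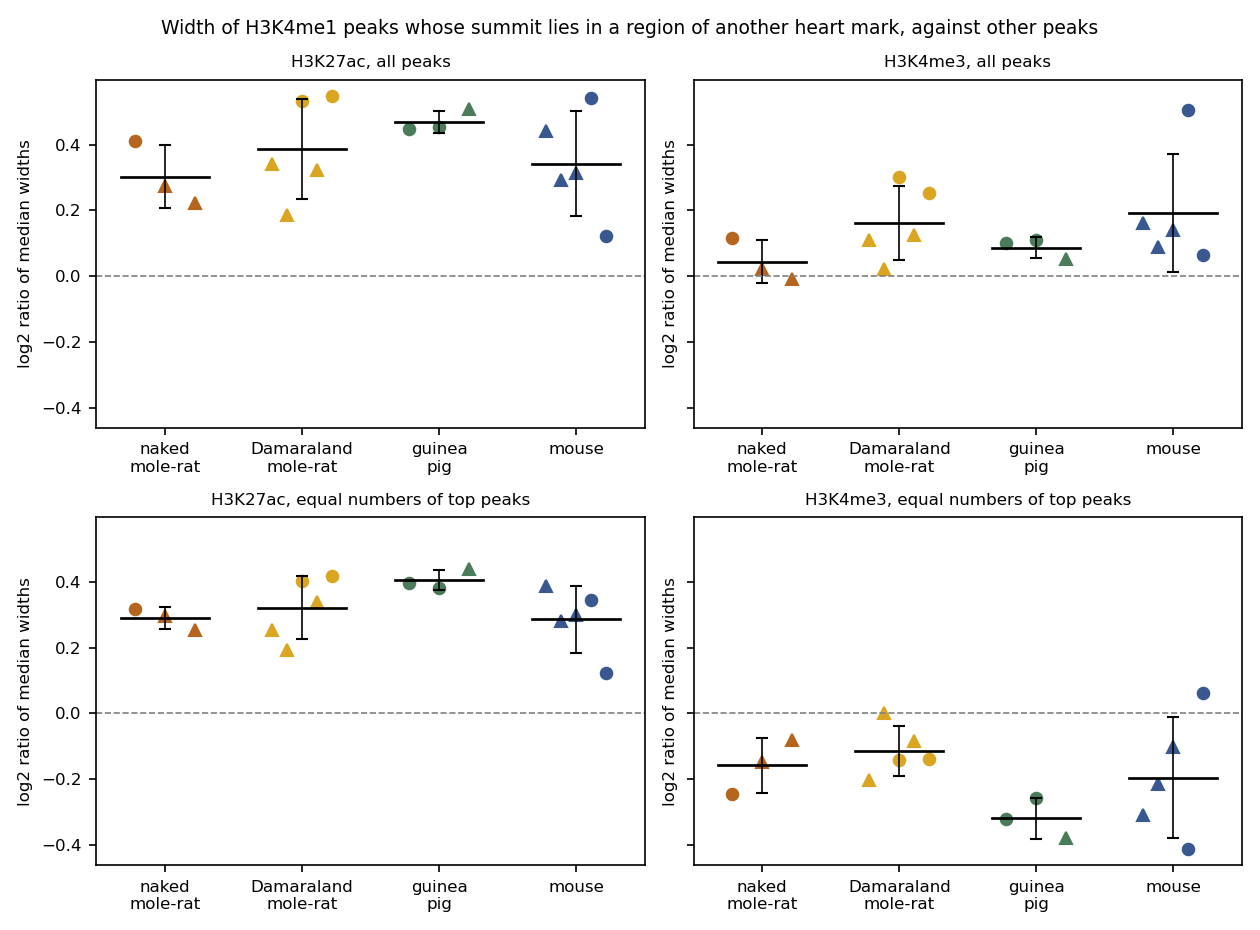
Log2 ratio of the median width of H3K4me1 peaks whose summit lies in a heart H3K27ac (left) or H3K4me3 (right) region to that of the other peaks, over all peaks (top) and the 20521 top peaks (bottom); points are libraries (circle, do; triangle, vl), lines species means, bars 1 SD, dashes equal width. The left panels lie above 0 in 16 of 16 lists, while on the right 15 of 16 lie above 0 for all peaks and 14 of 16 below 0 for the top peaks.

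Summits of H3K4me1 were less dense inside H3K4me3 regions than just outside them. Density was counted as summits per length and given relative to the zone 5000 to 10000 bases from the nearest region. In the naked mole-rat it was 3.09 ± 0.06 inside H3K4me3 regions and 5.07 ± 0.17 within the first 250 bases outside (mean ± SD, n = 3). In the guinea pig it was 3.58 ± 0.41 inside and 7.32 ± 0.28 outside (n = 3). In the mouse it was 5.54 ± 0.76 inside and 7.32 ± 1.00 outside (n = 5), and in the Damaraland mole-rat 4.04 ± 0.70 inside and 4.69 ± 0.93 outside (n = 5). The flank was denser than the inside in 15 of 16 lists, DMR4 being the exception with 3.804 inside and 3.728 outside. From 1000 to 2000 bases the density had come down to between 1.46 and 2.07 in all lists. H3K4me3 regions had a median width of 522 and 557 bases in the naked and Damaraland mole-rat and of 915 and 1140 bases in the guinea pig and mouse, so inside means a different extent in each species.

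Around H3K27ac regions there was no such dip. The density was highest inside in 16 of 16 lists, with a mean of 14.4 ± 4.10 in NMR, 17.9 ± 10.5 in DMR, 12.3 ± 2.50 for the guinea pig and 19.0 ± 10.3 in the mouse. In the first 250 bases outside it was 8.87 ± 1.60, 9.31 ± 3.47, 8.42 ± 1.00 and 10.6 ± 4.10 in the same order. The 2 shortest lists gave the highest ratios inside, 36.0 in DMR11 and 36.7 in the mouse pool, and the species were not tested against each other on these ratios.

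**Figure D5:**
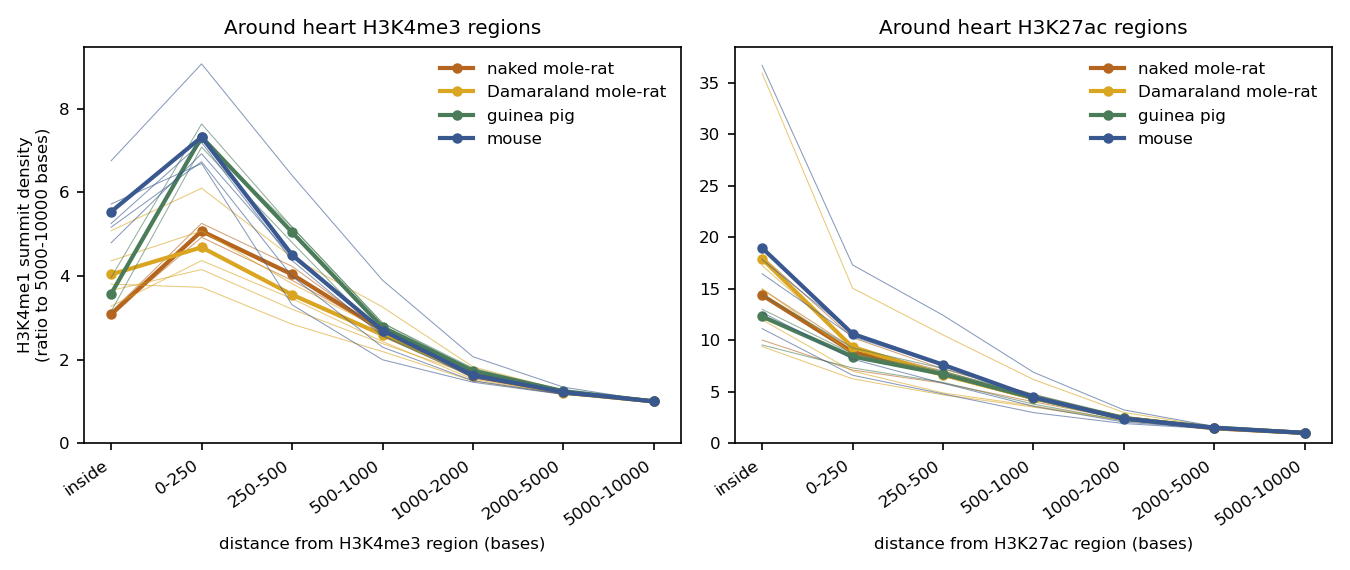
Density of H3K4me1 summits inside and by distance (bases) from heart H3K4me3 regions (left) and H3K27ac regions (right), as a ratio to the zone 5000 to 10000 bases away. Thin lines are libraries and thick lines species means; the left curves peak in the first 250 bases outside the region in 15 of 16 lists, the right curves inside the region in all 16.

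Replicate lists of the guinea pig, and those of the mouse other than the pool, overlapped more than mole-rat lists did. The Jaccard index, that is the bases in the overlap of 2 lists over the bases in their union, was 0.37 to 0.43 over the 3 guinea pig pairs and 0.15 to 0.23 over the 3 naked mole-rat pairs. It was 0.11 to 0.28 over the 10 Damaraland mole-rat pairs and 0.076 to 0.43 over the 10 mouse pairs. The 4 mouse pairs with the pool gave 0.076 to 0.11, and the other 6 gave 0.31 to 0.43. So the guinea pig pairs lay above all pairs of both mole-rats, and so did the mouse pairs without the pool. Pairs share libraries and differ in list length, so no test was made.

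The guinea pig pairs also lay above all mole-rat pairs at equal numbers of peaks. With 20521 peaks per list the Jaccard index was 0.35 to 0.40 for the guinea pig, 0.15 to 0.21 in NMR, 0.16 to 0.27 in DMR and 0.13 to 0.35 in the mouse. The share of peaks matched, by an overlap of at least 50% of the shorter peak and as the mean of both directions, was 50.3% to 54.5% in the guinea pig. It was 27.7% to 37.2% in the naked mole-rat, 34.4% to 40.3% in the Damaraland mole-rat and 33.8% to 52.1% in the mouse. In every guinea pig pair more peaks were matched than in any mole-rat pair. Equal numbers did not make the widths equal. Median widths were 941 to 1116 bases in the guinea pig, 450 to 863 in the naked and 414 to 954 in the Damaraland mole-rat. Both measures use the extent of the peaks, and the part of width in these values was not tested.

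Matched peaks had summits some distance apart. Over all peaks the median distance between matched summits was 146 to 183 bases for the guinea pig, 159 to 175 in NMR, 165 to 207 in DMR and 198 to 234 in the mouse. Between 36.8% and 51.1% of matched summits lay within 150 bases of each other, with the lowest value in a mouse pair and the highest in a guinea pig pair. Spearman's rho of matched widths across peaks, given as a description, was 0.32 to 0.41 for the guinea pig, 0.18 to 0.25 in NMR, 0.19 to 0.28 in DMR and 0.23 to 0.38 in the mouse. For fold it was 0.046 to 0.33 over all 26 pairs. Peaks of 1 list share its depth and input, so these values describe pairs of lists.

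Peaks found in every library of a species were the wide ones. In NMR30 the 12666 peaks matched in both other animals had a median width of 1009 bases, against 389 bases for the 70121 peaks matched in neither. In DMR2 the medians were 1276 and 326 bases, in GuineaPig9 856 and 379 bases, and in mouse 33017 2069 and 385 bases. These are the longest lists of their species. In the shortest lists the step was smaller. The medians were 488.5 and 335 bases in NMR32, 480.5 and 299 in DMR11, 719 and 347 in GuineaPig7, and 435 and 318 in the mouse pool. Peaks matched in all other lists were wider and of higher fold in 16 of 16 lists. Matching uses the extent of the peaks and is therefore not independent of width. Peaks matched nowhere else made up 63.3% of NMR30 and 44.8% of DMR2, but 6.26% of the mouse pool, which is the shortest list. A list was set against 2 others in NMR and guinea pig and 4 others in DMR and mouse. These widths and shares are therefore not on the same footing between species.

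The regions named here are, in each species, the 2 with the highest mean fold and the 2 with the largest mean width among those with a peak in every library, and their values describe that choice. In the naked mole-rat (build HetGla_1.0) the highest mean fold, 10.98 ± 1.69 (SD, n = 3), was on JH167034.1 from 1175336 to 1178667. The next, 10.8 ± 2.25, was on JH173932.1 from 466149 to 469465. Both overlapped a peak in 3 of 3 heart H3K27ac lists and in 0 of 4 heart H3K4me3 lists. The widest, 10298 ± 7588 bases, was on JH166929.1 from 415494 to 434543, and its peak ranged from 5576 to 19050 bases between animals. The second widest, 6318 ± 6625 bases, was on JH170668.1 from 430883 to 444794.

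In the Damaraland mole-rat (build DMR_v1.0) the highest mean fold, 12.5 ± 3.75 (SD, n = 5), was on KN122247.1 from 904985 to 918087, and the next, 11.8 ± 2.74, on KN123629.1 from 6339865 to 6349801. The widest, 9052 ± 6646 bases, was on KN124375.1 from 2321794 to 2337490 and overlapped a peak in 5 of 5 heart H3K4me3 lists. The second widest, 7128 ± 4197 bases, on KN123644.1 from 3026731 to 3038253, overlapped none of the 5. In the guinea pig (build Cavpor3.0) the highest mean fold, 16.7 ± 2.63 (SD, n = 3), was on DS562978.1 from 2878997 to 2884339, and the next, 16.5 ± 2.05, on DS563030.1 from 318378 to 325497. The widest, 18352 ± 3377 bases, was on DS562970.1 from 553658 to 576772 and the second, 17465 ± 5615 bases, on DS562995.1 from 735246 to 762121. In the first of these the peak ranged from 15225 to 21933 bases between animals.

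In the mouse (build GRCm38) the highest mean fold, 15.0 ± 6.34 (SD, n = 5), was on chromosome 6 from 90698124 to 90715002, and the next, 14.1 ± 5.80, on chromosome 10 from 79855672 to 79861614. The widest, 13606 ± 14645 bases, was on chromosome 4 from 155181925 to 155220663, where the peak ranged from 995 to 38671 bases between libraries. The second widest, 12325 ± 12058 bases, was on chromosome 14 from 25461300 to 25494791. All 16 regions overlapped a peak in every heart H3K27ac list of their species. Liver H3K4me1 lists also had a peak at all 16, in every liver list except 1 of 3 at the guinea pig region on DS562995.1. A wide region overlaps a peak of another list more easily. The share of all regions found in every library with such overlaps is not given here. These counts are therefore not read as particular to the named regions.

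Against the liver H3K4me1 lists of the same species, heart peaks had lower medians in the Damaraland mole-rat and the guinea pig, without passing the test. Libraries were treated as unpaired, although 3 naked mole-rats, 4 Damaraland mole-rats and 3 guinea pigs gave both tissues. In the guinea pig the heart medians were 434 to 493 bases and the liver medians 597 to 660 bases, with no overlap (log2 difference -0.43; exact permutation p = 0.10, the smallest that 3 against 3 can give; adjusted over 8 comparisons 0.40). In the Damaraland mole-rat they were 371 to 457 against 428 to 629 bases (log2 difference -0.34, exact permutation p = 0.0318, adjusted 0.254). In the naked mole-rat (384 to 449 against 402 to 552 bases) and the mouse (381 to 569 against 456 to 578 bases) the adjusted exact permutation p was 0.90. With equal numbers of top peaks the log2 difference from liver was -0.80 in NMR and -0.89 in DMR, each with p = 0.0714 by the exact permutation test after adjustment. It was -0.72 for the guinea pig (adjusted exact permutation p = 0.136) and -0.37 for the mouse (adjusted p = 0.499), so none passed there either, while all 4 differences were larger. Against heart H3K27ac lists the median widths overlapped in all 4 species, with log2 differences from -0.02 to 0.04 and an adjusted exact permutation p of 0.90 in each.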

How the data were processed

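Peak lists were used as deposited, 1 list per library, called with MACS2 against an input library, per the submitters' processing notes. The version and the aligner are not stated in any source used here. The notes name the builds GRCm38, HetGla_1.0, DMR_v1.0 and Cavpor3.0. Each list holds, as deposited by the authors, a fold over background (a ratio) and a −log10 p and −log10 q for every peak, with the summit as bases from the start. Groups were taken from the sample titles. Within each library the medians of width, fold, gap and summit offset were computed with Python 3.11.15, NumPy 2.4.6, pandas 2.3.3, SciPy 1.17.1 and Numba 0.67.0. Figures were drawn with Matplotlib 3.10.9. Equal numbers means the 20521 peaks of highest −log10 p, the length of the shortest list. Width, fold and gap were compared on the log2 scale.

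The library was the replicate throughout. Species were compared by an exact permutation test of the share of variance between species, and pairs by two-sided exact permutation tests. Marked and other peaks were compared by an exact sign-flip permutation test, and correlations used 100000 resamples. Benjamini-Hochberg adjustment ran over 4 form measures, 24 pairs, 4 mark contrasts, 8 width comparisons and 7 correlations. The scripts were tested on simulated data. Named regions were the 2 of highest mean fold and the 2 of largest mean width per species, among regions with a peak in every library. Members, measures and lists were chosen with earlier results of these data known. The reported comparisons with liver and with H3K27ac treated libraries as unpaired. Only in an alternative setting were libraries of the same animal in 2 tissues or marks paired, by the animal named in their titles. No sequence, gene or tissue marker was examined, since no genome or annotation of these builds was used here, and the heart label was therefore not checked against markers.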

Additional observations from a re-analysis of the deposited data

Results flagged for a closer look

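Among 22 groups of 4 or more libraries examined, 4 had 1 library set far from the rest by Dixon's criterion, which chance alone meets in about 1 group in 20. DMR11 had the smallest narrowest peak of the Damaraland mole-rat, 272 bases, against 288 to 294 bases in the other 4 lists. Mouse 33017 had the smallest narrowest peak of the mouse, 268 bases, against 291 to 299 bases. The mouse pool had a median width of 381 bases, against 516 to 569 bases in the other 4 mouse lists, and it is also the shortest list of all 16. In mouse 33017 peaks at H3K4me3 regions were wider than its other peaks by 0.5061 on the log2 scale, against 0.06 to 0.16 in the other 4 mouse lists. That library was called against another animal's input and carries the 40M tag, and the part of either in this value was not tested.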

How the results depend on the processing

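The outcome of the 4 species tests rested on the mouse pool. Leaving out each library in turn gave species shares of 36.75% to 76.99% for width, 33.5% to 58.3% for fold, 41.46% to 66.5% for gap and 38.25% to 63.97% for offset, and all 4 passed without the pool. The gap passed at a −log10 q of at least 4 (66.29%), on scaffolds reaching 1 Mb (63.01%) and with means (99.69%), but not over all peaks (20.31%). The mean of a fixed number of gaps depends mostly on the scaffold length that the peaks span. The setting with means therefore cannot tell the spacing of the mark apart from the assembly. In a setting that was not planned, peaks up to 151 bases apart were joined, so that all lists had the same limit. The shares were then 39.79% for gap and 38.84% for width (adjusted exact permutation p = 0.111 for both). The offset passed at a −log10 q of at least 4 (55.82%) and at equal numbers (90.52%). Without the mouse lists called against another input, which left only 17_3498 and the pool for the mouse, shares fell to 25.33% (width), 35.53% (gap) and 29.41% (offset). Width and fold fell to 25.53% and 17.48% at a −log10 q of at least 4. The offset at equal numbers was lost in selections chosen after seeing the data: 40.24% in the top 10000 peaks (65.08% and passing without the pool), 4.297% in top peaks of 500 to 1000 bases (1.718% without the pool) and 25.59% in all peaks of that width. The cause of these changes was not tested. Read depth is unknown, so its part in list length and width was not tested.

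The pair differences that changed sign had not passed in any setting. With equal numbers these were -0.2143 (width, NMR minus DMR), 0.2489 (width, guinea pig minus mouse), -0.1075 (fold, NMR minus DMR), 0.02521 (fold, guinea pig minus mouse), -2.895 (offset, NMR minus guinea pig) and -2.351 (offset, DMR minus guinea pig). At a −log10 q of at least 4 they were 0.05829 (width, guinea pig minus mouse), -1.098 (offset, NMR minus guinea pig) and -0.4531 (offset, DMR minus guinea pig). For width, NMR minus DMR was -0.02927 with means, -0.006569 with peaks under 500 bases apart joined and -0.00715 above the narrowest peak. Guinea pig minus mouse was 0.0675 without the mouse lists called against another input. With all peaks the gap was 0.3768 (NMR minus DMR), 0.762 (NMR minus guinea pig) and 0.3852 (DMR minus guinea pig). The NMR minus DMR offset was 0.02758 with means and 0.02841 within library series. Leaving out 1 library gave, for NMR minus DMR, -0.02278 to 0.09002 (width), -0.01729 to 0.07119 (fold), -0.09814 to 0.06584 (gap) and -0.3381 to 0.4258 (offset). For NMR minus guinea pig it gave -0.06365 to 0.02206 (fold) and -0.01237 to 0.7515 (offset).

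The H3K4me3 width step was -0.1859 at equal numbers and 0.04105 at a −log10 q of at least 4. Mouse heart against liver width was 0.01908 at that threshold. Heart H3K4me1 against H3K27ac width was -0.6614 (NMR) and -0.5547 (mouse) at equal numbers, and -0.01512 and -0.03533 at a −log10 q of at least 4. Without 1 library the liver difference was -0.1181 to 0.006003 (NMR) and -0.1242 to 0.04213 (mouse). The H3K27ac difference was then -0.07188 to 0.1262 (NMR), -0.09771 to 0.01841 (DMR), -0.03362 to 0.1019 (guinea pig) and -0.06272 to 0.1352 (mouse). With the animal as replicate block the difference from H3K27ac was -0.1171 (NMR), -0.0222 (DMR) and 0.04301 (guinea pig), and that from liver -0.1301, -0.3518 and -0.4348. The block changed no call.

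Reproducibility moved as follows. The −log10 q minimum of 4 gave an NMR Jaccard index of 0.1392. The matched share was 45.37% (NMR), 49.53% (DMR) and 63.59% (guinea pig) with 1 base of overlap, and 37.26% (DMR) and 51.72% (guinea pig) at equal numbers. In the order NMR, DMR, guinea pig and mouse, the summit distance was 215, 253.7, 223.3 and 272.6 bases at equal numbers, and 208, 213, 195.7 and 236.7 with 1 base of overlap. At a −log10 q of at least 4 it was 194 (NMR), 198.5 (DMR) and 223.7 (mouse). The Spearman correlation of matched widths at equal numbers was 0.2839, 0.2742, 0.4622 and 0.3825. Leaving out 1 library gave, for NMR and guinea pig, a Jaccard index of 0.1543 to 0.229 and 0.3733 to 0.4285, matched shares of 31.83% to 41.4% and 53.78% to 57.76%, distances of 159 to 175 and 146 to 183 bases, and Spearman correlations of 0.1799 to 0.2478 and 0.3198 to 0.414.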

Other observations

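Peaks with a fold above 25 were found in 2 of the 16 lists, and were picked out after their values were seen. Mouse 33017 held 14 of them, 272 to 1891 bases wide, and DMR11 held 2, while the other 14 lists held none. The highest, on mouse chromosome X from 143482802 to 143483326 (GRCm38), was 525 bases wide with a fold of 322.4, and no other heart H3K4me1 list of the mouse had a peak there. Of the 14 peaks, 10 had no peak in the other 4 mouse heart H3K4me1 lists. Over the whole list of mouse 33017, 34.0% of the peaks were matched in none of these lists. That share rests on the matching rule for replicate lists, so it is only a rough background for this count. Each of the 14, however, overlapped a peak in 3 to 17 of the 24 mouse lists of other marks or of liver. How many of all peaks of mouse 33017 have such overlaps is not given here. Its list was called against the input of another animal, and the part of this in these peaks was not tested. At the chromosome X peak, 6 heart H3K27ac or H3K4me3 lists had a peak. Some of the 14 lay on scaffolds not named as chromosomes (GL456389.1, GL456392.1 and JH584304.1). In DMR11 the highest, on KN122825.1 from 4226038 to 4226629 (DMR_v1.0), had a fold of 65.46 and no peak in the other 4 heart H3K4me1 lists. A peak was found there in 2 heart H3K27ac or H3K4me3 lists. Among the 14 lists without such peaks the highest fold was 23.9, in GuineaPig7, on DS562873.1 from 39855971 to 39874446, a peak of 18476 bases.

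Summits lay slightly nearer to the start than to the end of the peak, in the direction of rising coordinates, in every list. The mean summit position was 47.8% to 49.1% of the peak width, below 50% in 16 of 16 lists. It was 48.6% to 49.1% in the 7 do libraries and 47.8% to 48.6% in the 9 vl libraries, and the share of summits before the centre ran from 51.7% to 54.3%.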
